A study of Mus musculus with 45 samples.

Results

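MHCII+ and MHCII- macrophages were compared in injured skeletal muscle of mice with intact regulatory T cells. The 7 arrays, of 45 in the series, are those whose titles name the 24 h, day 7, DTR- condition: 4 of cells sorted as MHCII+ and 3 of cells sorted as MHCII-. Both groups came from male C57Bl6 mice, 8 weeks old and Foxp3.DTR-, which lack the diphtheria toxin (DT) receptor that other mice of the study carry under the Foxp3 promoter. Muscle had been injured with cardiotoxin 7 days earlier, and the titles of both genotypes carry 24 h of DT, without saying from which moment the hours run. Cells were gated as Ly6g- CD11b+ F4-80+ and sorted by class II of the major histocompatibility complex (MHCII), and RNA was read on Affymetrix Mouse Gene ST 1.0 arrays. The labels do not state that the arrays of a group come from separate animals. The p-values rest on the spread within groups, pooled over all 45 arrays, which may be technical.

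The same split was available in 3 other conditions, with which no array is shared. They were 24 h day 7 DTR+ mice (2 MHCII+ and 3 MHCII- arrays, 8 weeks old), 8 h day 7 DTR- mice (3 and 4 arrays, 12 weeks old, with SiglecF+ cells gated out as well) and uninjured day 0 DTR- mice (2 and 2 arrays, 10 weeks old).

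Class II molecules are heterodimers of an alpha and a beta chain that carry peptides to CD4+ T cells. They are assembled with the invariant chain Cd74, loaded with the help of H2-DM and held in check by H2-O, and Ciita is the transactivator that switches the whole gene group on. In muscle, macrophages clear debris of dying fibres after injury and then change their programme as fibres regenerate. Resident macrophages of many tissues are marked by scavenger and complement receptors such as Lyve1, Timd4 and Vsig4, whereas monocyte-derived cells more often carry Ccr2 and class II.

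Class II promoters are known for a shared arrangement of short elements, the X box, bound by RFX proteins, and the Y box, bound by NF-Y, on which Ciita assembles. Class II is the property on which the cells were sorted. The stretches of 160 bases before the annotated start are shown for 4 class II genes, all of which hold the pair of letters described below. They are RefSeq sequences of GRCm38.p6, read 5′ to 3′ along the gene, and the capitals mark 1 pair per promoter of the letters GCAAC, found in X boxes, and GATTGG, found in Y boxes; any further GCAAC, as near the end of H2-Eb2, is left in lower case. H2-Aa lies at chr17:34287824-34287983 on the minus strand. H2-Eb1 (chr17:34305707-34305866), H2-Eb2 (chr17:34325515-34325674) and H2-Ob (chr17:34238745-34238904) lie on the plus strand.
H2-Aa: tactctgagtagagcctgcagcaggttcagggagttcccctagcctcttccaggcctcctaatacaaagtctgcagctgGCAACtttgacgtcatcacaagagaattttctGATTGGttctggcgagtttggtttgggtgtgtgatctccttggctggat
H2-Eb1: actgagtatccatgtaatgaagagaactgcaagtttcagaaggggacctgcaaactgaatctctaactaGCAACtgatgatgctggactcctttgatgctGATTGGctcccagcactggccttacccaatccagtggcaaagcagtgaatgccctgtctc
H2-Eb2: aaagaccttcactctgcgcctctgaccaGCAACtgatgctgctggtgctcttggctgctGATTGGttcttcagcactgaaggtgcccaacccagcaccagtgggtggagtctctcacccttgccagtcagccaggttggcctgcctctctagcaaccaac
H2-Ob: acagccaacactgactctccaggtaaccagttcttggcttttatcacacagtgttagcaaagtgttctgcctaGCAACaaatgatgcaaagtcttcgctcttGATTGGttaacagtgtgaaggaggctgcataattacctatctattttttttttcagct
The 2 motifs were 27, 26, 26 and 24 bases apart in H2-Aa, H2-Eb1, H2-Eb2 and H2-Ob. GCAAC followed by GATTGG at a distance of 15 to 45 bases, on either strand of a 300 base promoter (250 before to 50 after the start), was found in 156 of 27025 genes with a promoter in the table (0.577%) and in 72 of the 8903 tested genes that had one (0.809%). Of 69 genes higher in MHCII+ cells, 48 had a promoter in the table and 5 of these held the pair (10.4%), which were H2-Aa, H2-Eb1, H2-Eb2, H2-Oa and H2-Ob. None of the 20 promoters of genes lower in MHCII+ cells held it, which is near the share over tested genes (0.809%). Of 8 promoters in the table for genes of the class II list, 5 held the pair (62.5%), those of the same 5 genes. GATTGG alone was common (18.2% of all promoters). The motif pair was chosen after these sequences had been seen, and a match of letters is a description and not a binding site.

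The arrays bore out the titles. The sorting markers recorded for the samples give MHCII- for all 7 arrays, which goes against the titles of 4, but H2-Ab1, H2-Aa, H2-Eb1 and Cd74 each lay higher in all 24 arrays of the series titled MHCII+ than in any of the 21 titled MHCII-. The median intensity was 187.4 to 201.3 in the MHCII+ arrays and 189.1 to 191.4 in the MHCII- arrays. The macrophage genes were measured on both sides: Adgre1, which encodes F4/80, had log2 intensities of 12.73 to 12.94 in MHCII+ arrays and 12.85 to 12.91 in MHCII- arrays, and the lysosomal glycoprotein gene Cd68 had 13.30 to 13.51 in MHCII+ arrays and 13.48 to 13.53 in MHCII- arrays.

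The arrays did not separate by group alone. Deviations from the group means were shared by MHCII+ replicate 4 and MHCII- replicate 3 (correlation 0.54 over tested genes), and MHCII- replicate 3 correlated more with MHCII+ replicate 4 (0.9855) than with MHCII- replicates 1 and 2 (0.9814 and 0.9824). MHCII+ replicate 4 correlated most with MHCII+ replicate 2 (0.9861), which in turn correlated more with MHCII- replicates 1 and 2 (0.9833 and 0.9832) than with MHCII+ replicates 1 and 3 (0.9762 and 0.9650). MHCII+ replicate 4 and MHCII- replicate 3 were the highest of their groups for Vcan, a matrix proteoglycan of Ly6C-high monocytes, with 7.66, 7.98, 7.08 and 8.99 in MHCII+ arrays, against 8.55, 8.59 and 11.17 in MHCII- arrays. MHCII+ replicate 3 differed in another way: Ngp, a neutrophil granule protein gene, lay at 9.12 there, against 4.88 to 5.12 in the other 3 MHCII+ arrays and 4.75 to 5.16 in the MHCII- arrays. Results are therefore also given without these arrays where that changes a call.

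Of 11074 genes tested with limma on log2 intensity, 98 passed an adjusted p of 0.05 (0.885%): 69 were higher in MHCII+ cells (0.623%) and 29 lower (0.262%). At least 2-fold differences made up 58 of them, 47 higher and 11 lower. An unadjusted p under 0.05 was reached by 1239 genes. In 97 of the 98 genes the 4 MHCII+ and 3 MHCII- arrays did not overlap, which held for 13.9% of all tested genes (4.12% with MHCII+ higher and 9.75% with MHCII+ lower); the exception was Rnase6, named after its values were seen. The median difference over all tested genes was -0.07, with 35.3% above 0. The genes that passed are set against all others in the plot of difference against p. The count was 54 without MHCII- replicate 1, 55 without MHCII- replicate 2, 170 without MHCII+ replicate 4, and 85 (79 of them among the 98) without MHCII+ replicate 4 and MHCII- replicate 3 together. Each of the 98 kept its direction in these 4 fits, which for the 97 without overlap follows from the lack of overlap. In 37 of the 69 higher genes all 3 MHCII- arrays lay below log2 7.57, the intensity that a gene's mean had to reach in at least 1 group of the series to be tested, and in 2 of the 29 lower genes all 4 MHCII+ arrays did. Such genes were tested because another group was above that filter.

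**Figure D1:**
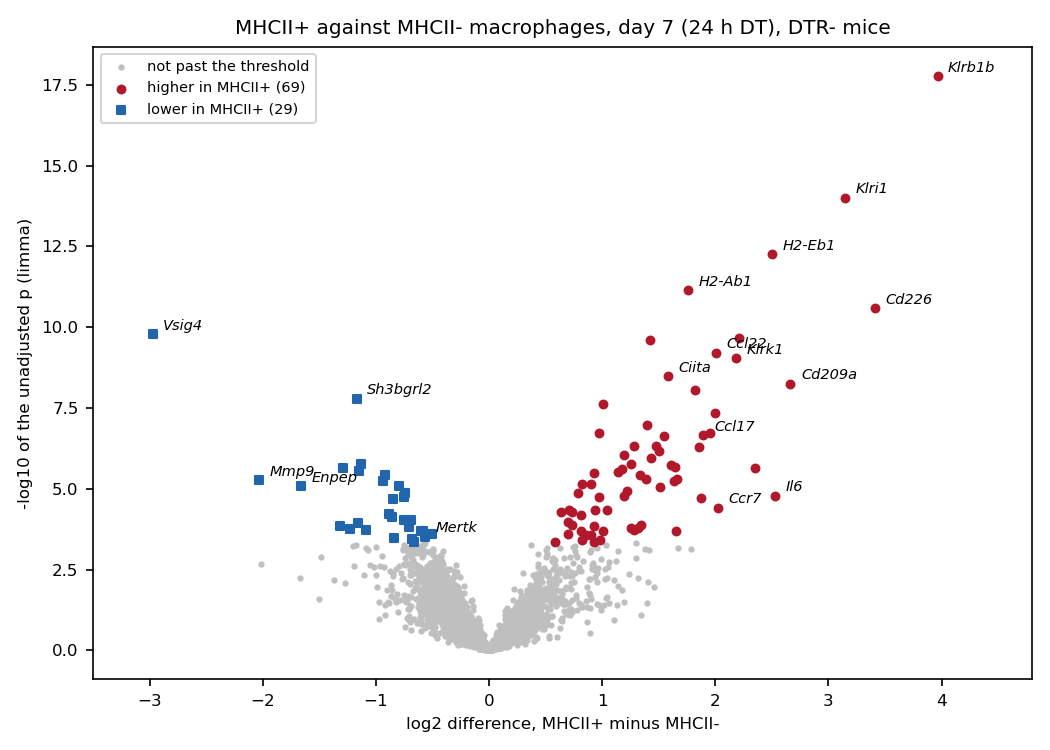
Difference in log2 intensity, MHCII+ minus MHCII- (x axis), against -log10 of the unadjusted limma p (y axis) for 11074 tested genes. Red circles are the 69 genes higher and blue squares the 29 genes lower in MHCII+ cells; Klrb1b and Vsig4 lie farthest out on the 2 sides.

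Most class II genes were higher in MHCII+ cells, which were sorted on class II, so this is not an independent result. These genes give the scale of the separation at the RNA level. Of 11 tested members, 9 were higher and 0 lower, with a median difference of 1.40. Of the 10 members whose mean over the 7 arrays reached the intensity filter, 8 were higher (median 1.41). H2-Eb1, the beta chain of I-E, lay at log2 13.64, 13.74, 13.70 and 13.77 in MHCII+ arrays and at 11.36, 11.26 and 11.02 in MHCII- arrays (difference 2.50 ± 0.22 SE, adjusted p = 1.99e-09). The groups were far apart, although the MHCII- level was well above the intensity filter used for testing (log2 7.57). The I-A chains differed less, H2-Ab1 (beta) by 1.76 ± 0.17 (adjusted p = 2.00e-08) and H2-Aa (alpha) by 1.40 ± 0.21 (adjusted p = 7.09e-05). Ciita lay at 10.20, 10.65, 10.02 and 10.54 in MHCII+ arrays and at 8.81, 8.90 and 8.61 in MHCII- arrays (1.58 ± 0.20, adjusted p = 3.24e-06). Its groups were apart by more than 1 log2 unit at their nearest arrays. Cd74 was 1.01 ± 0.14 higher (adjusted p = 1.80e-05) and H2-Ob, a subunit of the inhibitor H2-O, 1.42 ± 0.16 (adjusted p = 3.36e-07). H2-Eb2 (1.86), H2-DMa (1.14) and H2-Oa (0.79) passed too and are named after their values were seen. The 2 that did not pass were Ifi30, a thiol reductase of antigen processing (-0.14 ± 0.10, adjusted p = 0.668), and the lysosomal protease gene Ctss (0.06, adjusted p = 0.914), the last also named after its values were seen. The class I list stood beside this with 0 of 13 members past the threshold and a median of 0.07, where 0.885% of all tested genes passed. B2m, the light chain of class I, lay at 13.56 to 13.72 in MHCII+ arrays, against 13.46 to 13.63 in MHCII- arrays.

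Several receptors encoded in the natural killer (NK) gene complex, and related receptors, were higher in MHCII+ cells. Of 12 measured members of that list, 3 were below the filter in every group and 9 were tested, of which 6 were higher in MHCII+ cells and 0 lower. For 4 of these 6 (Klrk1, Klrb1a, Klrd1 and Klra17) the mean over the 7 arrays lay below the filter, so they were tested only through groups in which they are high, and the count does not describe the list. Of the 5 members with a 7-array mean above it, 2 were higher (median 0.88). Klrb1b, an inhibitory lectin-like receptor of the NKR-P1 family, lay at 10.38, 10.46, 9.73 and 9.96 in MHCII+ arrays and at 6.41, 6.01 and 6.08 in MHCII- arrays. The difference was 3.96 ± 0.22 (adjusted p = 1.83e-14), with the MHCII- values below the filter; no detection call comes with the values, so its exact size rests on low intensities. Cd226, an adhesion receptor that activates lymphocytes, lay at 9.97, 9.86, 9.85 and 8.36 in MHCII+ arrays and at 6.39, 6.16 and 5.73 in MHCII- arrays (3.41 ± 0.35, adjusted p = 5.69e-08). MHCII+ replicate 4 was well below the other 3 but still above every MHCII- array. Klri1, a lectin-like receptor that the list does not hold, lay at 9.46, 9.23, 8.77 and 8.35 in MHCII+ arrays and at 6.16, 5.78 and 5.47 in MHCII- arrays (3.15 ± 0.24, adjusted p = 5.43e-11). Klrk1, which encodes the activating receptor NKG2D, differed by 2.18 ± 0.26 (adjusted p = 1.03e-06) and Klrb1a by 1.99 ± 0.28 (adjusted p = 3.04e-05). Klrd1, which encodes CD94 (1.51), and Klra17 (1.65) passed as well and are named after their values were seen.

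Markers of NK cells were too low to be tested, and the part of NK cells in these receptor values was not tested. All 8 genes of the NK cell list lay below that filter in every group, and the mean level of the list was 5.97 to 6.28 in MHCII+ arrays, against 5.86 to 5.97 in MHCII- arrays. Ncr1, which encodes the NK receptor NKp46, lay at 5.38, 5.35, 6.03 and 5.44 in MHCII+ arrays and at 5.52, 5.32 and 5.61 in MHCII- arrays, and the granzyme gene Gzma at 5.17 to 5.55 in MHCII+ arrays and 5.13 to 5.26 in MHCII- arrays; Ncr1 and Gzma are named after their values were seen. Both lists were chosen with earlier results in view. In bulk samples, more cells of a type and more RNA per cell cannot be told apart.

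Genes known from dendritic cells were higher in part. Of 16 measured members, 12 were tested, of which 5 were higher in MHCII+ cells and 0 lower. For Clec9a, Dpp4 and Flt3 among these 5 the mean over the 7 arrays lay below the filter; of the 8 members above it, 2 were higher (Cd209a and Ccr7; median 0.74). The mean level of the 16 measured members did not overlap (8.63 to 9.02 in MHCII+ arrays, against 8.08 to 8.13 in MHCII- arrays). Cd209a, a DC-SIGN-related lectin of monocyte-derived dendritic cells, lay at 12.14, 12.04, 12.28 and 11.42 in MHCII+ arrays and at 9.31, 9.30 and 9.31 in MHCII- arrays (2.66 ± 0.34, adjusted p = 5.11e-06). MHCII+ replicate 4 was again the lowest of its group, far above the MHCII- arrays. Ccr7, the receptor that guides dendritic cells to lymph nodes, lay at 9.83, 9.67, 9.27 and 9.20 in MHCII+ arrays and at 7.49, 7.44 and 7.47 in MHCII- arrays (2.02 ± 0.43, adjusted p = 0.00721). Its call was lost without MHCII- replicate 1 (adjusted p = 0.0711) or 2 (adjusted p = 0.0814). Clec9a, a receptor for the cytoskeleton of dead cells, was higher by 1.55 ± 0.24 (adjusted p = 1.25e-04), the peptidase gene Dpp4 by 1.50 ± 0.25 (adjusted p = 2.93e-04) and the growth factor receptor gene Flt3 by 0.93 ± 0.22 (adjusted p = 0.0207). The Flt3 call was lost without any 1 of 5 arrays, MHCII+ replicates 1 and 2 and the 3 MHCII- replicates. Other defining genes did not pass: Zbtb46, a transcription factor of conventional dendritic cells, lay at 7.48, 7.32, 7.82 and 7.31 in MHCII+ arrays and at 7.35, 7.50 and 7.68 in MHCII- arrays. Itgax, which encodes CD11c, was high on both sides and overlapped (11.58 to 12.09 in MHCII+ arrays, against 11.25 to 11.58 in MHCII- arrays; 0.42 ± 0.18, adjusted p = 0.366).

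Chemokines and other signals of MHCII+ cells followed. Of 13 CC chemokines tested, 3 were higher and 0 lower. For 1 of these 3, Ccl22, the mean over the 7 arrays lay below the filter, so it was tested only through groups in which it is high. Of the 12 CC chemokines above it, 2 were higher. Ccl22 and Ccl17 encode the ligands of CCR4, a receptor of regulatory and type 2 helper T cells. Ccl22 lay at 8.00, 8.54, 8.11 and 8.59 in MHCII+ arrays and at 6.07, 6.33 and 6.49 in MHCII- arrays (2.01 ± 0.23, adjusted p = 7.55e-07). For Ccl17 the values were 9.49, 9.55, 9.51 and 9.20 in MHCII+ arrays, against 7.54, 8.01 and 7.08 in MHCII- arrays (1.90 ± 0.29, adjusted p = 1.18e-04). Neither set of values overlapped, which the rule that named both genes requires. Ccl5 was 1.35 ± 0.31 higher (adjusted p = 0.0198), a call lost without any 1 of 5 arrays, MHCII+ replicates 1 and 4 and the 3 MHCII- replicates. The monocyte attractants Ccl2 (-0.22 ± 0.14) and Ccl7 (-0.42 ± 0.14) did not pass. Cxcl9, an IFN-gamma-induced T cell attractant, lay at 11.23, 11.36, 11.55 and 11.58 in MHCII+ arrays and at 9.96, 10.15 and 8.83 in MHCII- arrays, without overlap, but did not pass either (1.78 ± 0.48, adjusted p = 0.0658).

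The cytokine gene Il6 lay at 9.65, 9.66, 9.95 and 8.23 in MHCII+ arrays and at 7.37, 6.98 and 6.18 in MHCII- arrays (2.53 ± 0.50, adjusted p = 0.0034). It was the only one of 17 inflammatory cytokine and NF-kB target genes to pass, and its call was lost without MHCII- replicate 3 (adjusted p = 0.0688). Il1b lay at 12.54 to 12.95 in MHCII+ arrays, against 12.15 to 12.48 in MHCII- arrays (0.47 ± 0.20, adjusted p = 0.338). Aldh1a2, whose product makes retinoic acid, was higher by 1.88 ± 0.38 (adjusted p = 0.00382), which was lost without MHCII- replicate 1 (adjusted p = 0.0917). Of 12 costimulatory and checkpoint ligands only Tnfsf9, a TNF family ligand that costimulates T cells, passed (1.20 ± 0.24, adjusted p = 0.00354), at 9.76 to 9.94 in MHCII+ arrays, against 8.61 to 8.69 in MHCII- arrays. Without MHCII+ replicate 4 and MHCII- replicate 3 together its adjusted p was 0.0510. Cd86, the classical ligand of CD28, overlapped (11.16, 11.48, 11.32 and 11.57 in MHCII+ arrays and 11.46, 11.47 and 11.48 in MHCII- arrays). The rest of the 15 largest increases were Clec4b1, a C-type lectin (2.35 ± 0.41, adjusted p = 7.73e-04), H2-M2, a non-classical class I gene (2.21 ± 0.25, adjusted p = 3.36e-07), and P2ry10, a lipid receptor (1.95 ± 0.30, adjusted p = 1.10e-04). For Clec4b1 the mean over the 7 arrays lay below the filter, so it was tested only through groups in which it is high. The values by array are drawn in the plot of 16 genes.

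**Figure D2:**
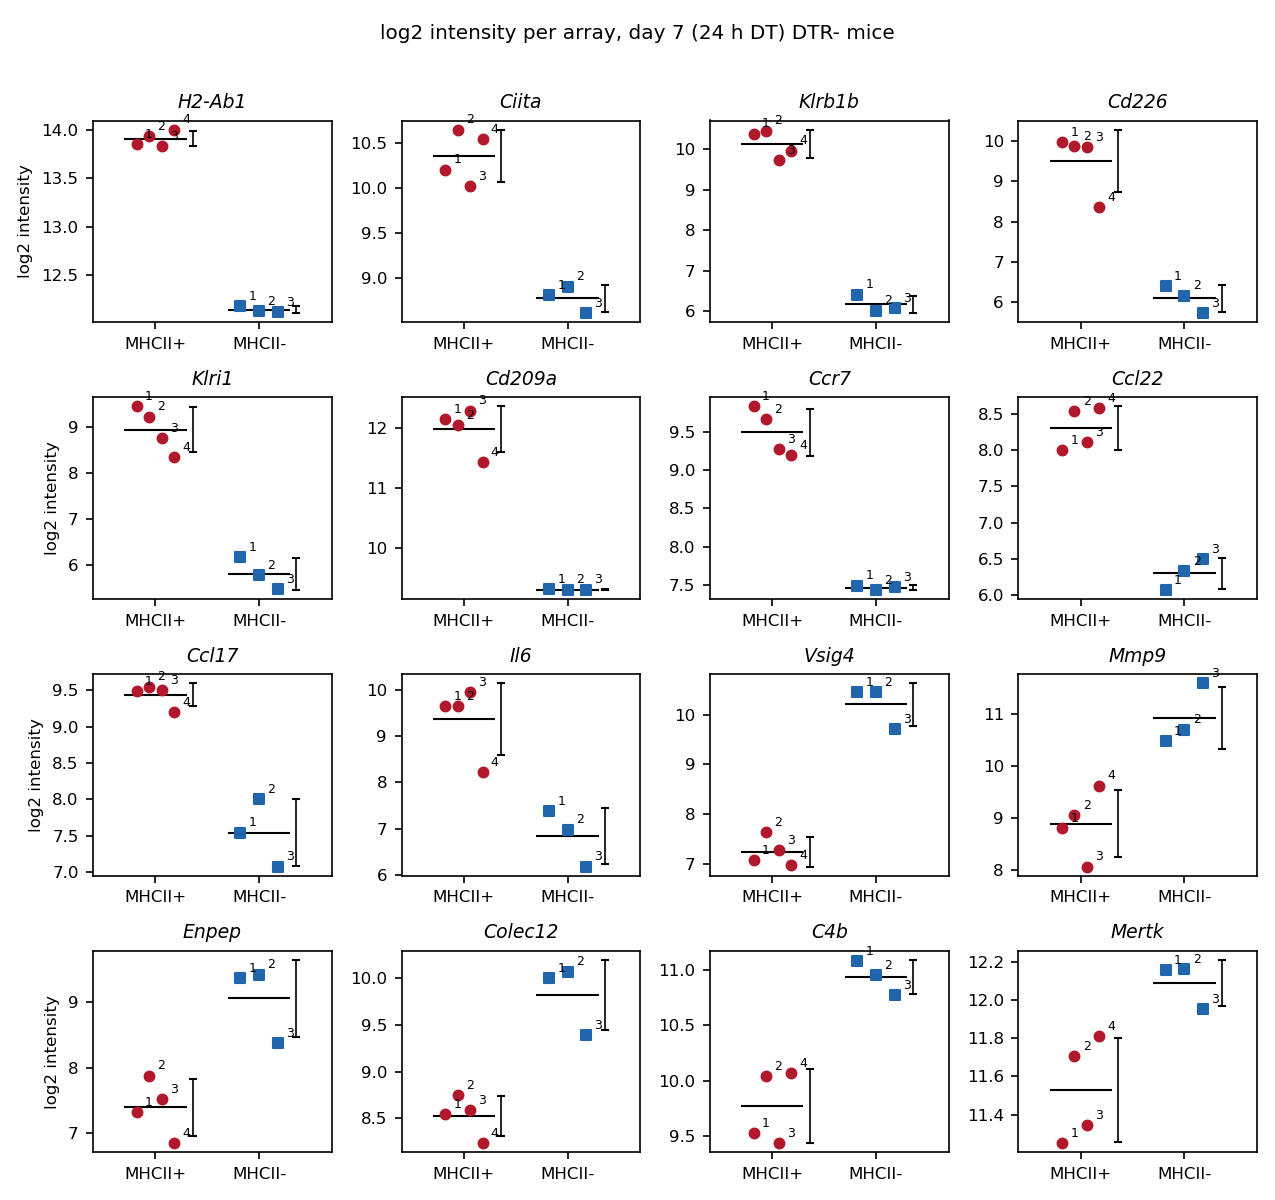
Log2 intensity (y axes) of 16 genes in the 4 MHCII+ (red circles, left) and 3 MHCII- arrays (blue squares, right), numbered by replicate; horizontal lines are group means and bars 1 SD. All 16 genes passed the threshold, and most were named by a rule that asks for groups without overlap. The lack of overlap in the 16 genes thus follows from their choice. Cd226 and Il6 are lowest in MHCII+ replicate 4.

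On the lower side, Vsig4 stood out. Vsig4 encodes the complement receptor CRIg, by which tissue macrophages take up C3-coated particles. It lay at 7.07, 7.64, 7.27 and 6.97 in MHCII+ arrays and at 10.45, 10.46 and 9.71 in MHCII- arrays (-2.97 ± 0.33, adjusted p = 3.10e-07), so that the MHCII+ values were near or under the filter. It was the only one of 16 tested resident macrophage receptors and scavengers to pass, yet all 16 lay below 0, with a median of -0.69 against -0.07 over all genes. Lyve1, a hyaluronan receptor, lay at 10.63, 10.69, 10.43 and 10.23 in MHCII+ arrays and at 12.10, 12.11 and 11.74 in MHCII- arrays (-1.49 ± 0.42, adjusted p = 0.087). Its groups did not overlap. Timd4, a phosphatidylserine receptor, lay at 7.02 to 7.15 in MHCII+ arrays, against 7.49 to 8.03 in MHCII- arrays (-0.68 ± 0.18, adjusted p = 0.0625), and the mannose receptor gene Mrc1 at 12.23 to 12.40 in MHCII+ arrays and 12.38 to 12.57 in MHCII- arrays (-0.18 ± 0.16, adjusted p = 0.755). How many members of this list passed depended on the spread assumed: 14 with weights by array, 10 with only the 7 compared arrays in the fit, 10 with equal weights for all sets, 3 with only the 24 h day 7 arrays, and 1 with the weights by set used here. Folr2 (-0.27, adjusted p = 0.277) and Ccr2 (1.05, adjusted p = 0.190) did not pass. Ly6C-high monocyte genes had a median of -0.26, with 2 of 10 above 0 and 0 passed. The mean level of these monocyte genes was 9.89 to 10.22 in MHCII+ arrays, against 10.20 to 10.73 in MHCII- arrays. The origin of the cells was not tested.

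Mmp9, a gelatinase that macrophages and neutrophils secrete, was the second largest decrease. It lay at 8.80, 9.06, 8.07 and 9.62 in MHCII+ arrays and at 10.48, 10.70 and 11.59 in MHCII- arrays (-2.04 ± 0.38, adjusted p = 0.00142). Without MHCII+ replicate 4 and MHCII- replicate 3, the highest array of each group, the difference was -1.95 (adjusted p = 0.0157). Of 14 matrix proteases and inhibitors it alone passed; the macrophage elastase gene Mmp12 lay the other way (1.04 ± 0.27, adjusted p = 0.0567). Mmp9 also stands in the neutrophil list, in which MHCII+ replicate 3, the array with neutrophil transcripts, was the lowest for Mmp9.

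The other decreases spanned several functions. Colec12, a scavenger receptor collectin, lay at 8.55, 8.75, 8.59 and 8.23 in MHCII+ arrays and at 10.00, 10.07 and 9.39 in MHCII- arrays (-1.29 ± 0.23, adjusted p = 7.73e-04). C4b, complement component C4, was lower by a difference of -1.16 ± 0.27 (adjusted p = 0.0181), the sole change among 12 complement genes, and was lost without any 1 of MHCII+ replicates 1 and 3 and MHCII- replicates 1 and 2. Mertk, a receptor for the uptake of dying cells, lay at 11.25, 11.71, 11.34 and 11.81 in MHCII+ arrays and at 12.16, 12.16 and 11.95 in MHCII- arrays (-0.56 ± 0.14, adjusted p = 0.0368). MHCII+ replicates 2 and 4 came nearest to the MHCII- arrays, and the Mertk call was lost without any array but MHCII+ replicates 2 and 4. Its ligand Gas6 did not pass (-0.75 ± 0.22, adjusted p = 0.121). Receptor and signalling genes included Adgrg1, an adhesion G protein-coupled receptor (-1.15 ± 0.20, adjusted p = 8.67e-04), the serotonin receptor gene Htr2b (-1.32 ± 0.31, adjusted p = 0.0207), the latrophilin gene Adgrl2 (-1.09 ± 0.26, adjusted p = 0.0257) and the adenylyl cyclase gene Adcy3 (-0.93 ± 0.17, adjusted p = 0.00143). Further decreases were Enpep, an aminopeptidase (-1.66 ± 0.32, adjusted p = 0.00192), Dnm1, dynamin 1 (-1.14 ± 0.20), Sh3bgrl2 (-1.17 ± 0.16), the gap junction gene Gja1 (-1.23 ± 0.29), Lbp, which binds lipopolysaccharide (-0.92 ± 0.17), the glycosyltransferase gene B3gnt3 (-0.89 ± 0.19) and Pgap6 (-0.86 ± 0.19). Of the genes of this paragraph, Colec12, Adgrg1, Adcy3, Dnm1, Sh3bgrl2 and Lbp kept their calls whichever 1 array was left out.

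**Figure D3:**
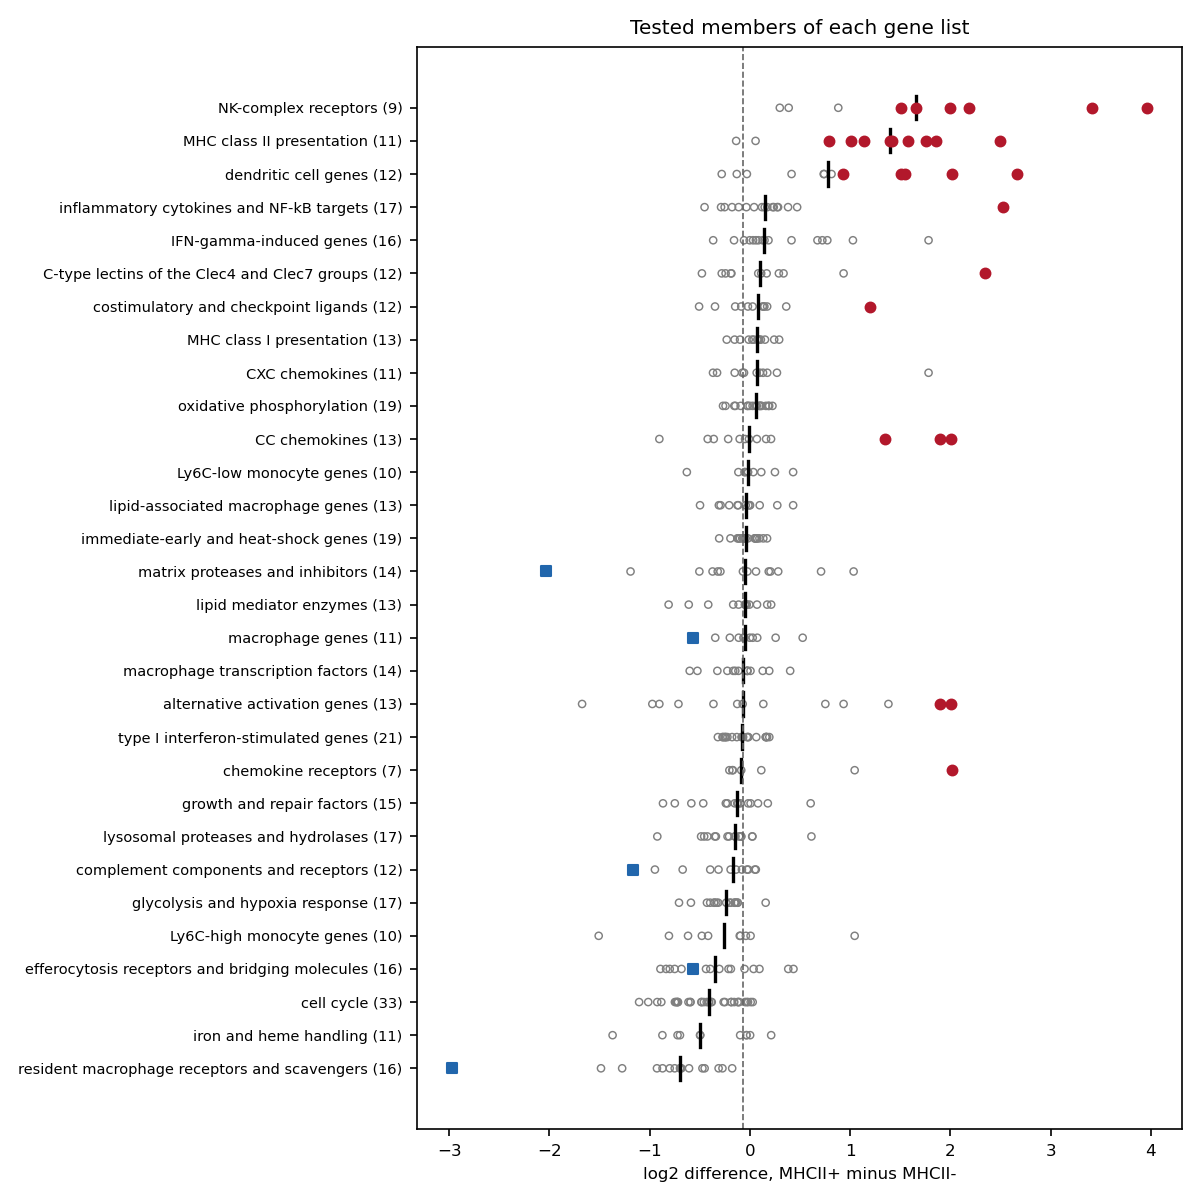
Difference in log2 intensity, MHCII+ minus MHCII- (x axis), of the tested members of each gene list (rows, with the number tested). Filled red circles are higher and filled blue squares lower past the threshold, open circles did not pass, black ticks are list medians and the dashed line the median of all genes (-0.07); resident receptors have a median of -0.69 and class II genes one of 1.40. In the NK-complex and dendritic cell rows, 4 of 6 and 3 of 5 filled symbols are genes whose mean over the 7 arrays is below the filter. So is 1 filled symbol in each of the class II, CC chemokine, alternative activation and C-type lectin rows.

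Many programmes tied to macrophage function held no gene past the threshold with the weights by set, as the plot of gene lists shows. Of all tested genes 0.885% passed, so a count of 0 in a short list is near that share. It does not show that a programme was the same on both sides. Several of these counts of 0 depended on the weights: over 18 alternatives they reached 7 of 11 for iron and heme handling, 4 of 16 for IFN-gamma-induced genes and 2 of 13 for lipid-associated macrophage genes, whereas type I interferon, glycolysis and oxidative phosphorylation genes stayed at 0. IFN-gamma-induced genes had a median of 0.14 (0 of 16 passed), with Slamf8, a receptor of activated macrophages, at 1.03 ± 0.32 (adjusted p = 0.146) and Gbp2b, a GTPase gene, at 0.72 ± 0.23 (adjusted p = 0.159). The type I interferon response (median -0.08, 0 of 21) and lipid-associated macrophage genes (-0.04, 0 of 13) were near the median of all genes; the lipid receptor gene Trem2 lay at 12.68 to 12.82 in MHCII+ arrays, against 12.77 to 12.94 in MHCII- arrays. Oxidative phosphorylation (median 0.06, 0 of 19) lay above and glycolysis and hypoxia response genes (-0.24, 0 of 17) below the median of all genes. Markers of alternative activation split: Ccl22 and Ccl17 passed, while Retnla (1.38 ± 0.37, adjusted p = 0.0643) and the lectin gene Mgl2 (0.94 ± 0.31) lay above 0 and the chitinase-like gene Chil3 (-1.67 ± 0.57) and arginase gene Arg1 (-0.97 ± 0.59) below it. Arg1 overlapped between the groups and was highest in MHCII- replicate 3 (9.66). Iron and heme handling genes had a median of -0.49 (0 of 11 passed), among them the iron exporter gene Slc40a1, at 10.66, 9.72, 9.78 and 9.58 in MHCII+ arrays and 11.46, 11.33 and 11.13 in MHCII- arrays (-1.37 ± 0.47, adjusted p = 0.208).

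Cell cycle genes lay lower in MHCII+ cells as a list without a gene that passed. The median over 33 members was -0.41, with 31 below 0 and 2 above. Over all tested genes the median was -0.07, with 35.3% above 0. The mean level of the list was 8.54 to 8.80 in MHCII+ arrays, against 9.06 to 9.16 in MHCII- arrays. Mki67, a marker of cycling cells, lay at 9.23, 9.71, 9.36 and 9.60 in MHCII+ arrays and at 10.29, 10.28 and 10.03 in MHCII- arrays (-0.72 ± 0.36, adjusted p = 0.45). The mitotic kinase gene Plk1 was at 8.11 to 8.66 in MHCII+ arrays, against 9.47 to 9.74 in MHCII- arrays (-1.10 ± 0.36, adjusted p = 0.174). Both were free of overlap, as were 9.75% of all tested genes with MHCII+ lower. The count of members that passed was 11 with only the 7 compared arrays in the fit, 9 with weights by array, 4 with equal weights and 3 with only the 24 h day 7 arrays. In the same fits, in this order, 222, 782, 579 and 149 of all tested genes passed.

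Marker lists of other cells moved between arrays and partly between groups, as the plot of marker lists shows. The mean level of the neutrophil list was 6.79 to 7.64 in MHCII+ arrays, highest in replicate 3, and 6.95 to 7.13 in MHCII- arrays; that of the eosinophil list was 6.40 to 7.30 in MHCII+ arrays, again highest in replicate 3, and 6.50 to 6.62 in MHCII- arrays. Over all tested genes 35.3% were above 0, with a median of -0.07. Skeletal muscle genes lay higher in MHCII+ arrays: the list level was 8.05 to 8.65 in MHCII+ arrays, against 7.78 to 7.91 in MHCII- arrays, all 13 tested members were above 0 (median 0.44) and 0 passed. With equal weights 5 of them passed, with weights by array 2, and 1 with the replicate block or without MHCII+ replicate 4. The satellite cell gene Pax7 lay at 7.89 to 8.76 in MHCII+ arrays, against 7.58 to 7.84 in MHCII- arrays. Fibroblast genes had a median of 0.43 with all 8 tested members above 0 and 0 passed, at list levels of 8.18 to 8.98 in MHCII+ arrays, against 7.95 to 8.40 in MHCII- arrays. T cell genes lay at 7.00 to 7.34 in MHCII+ arrays and 6.97 to 7.15 in MHCII- arrays, below the filter. The regulatory T cell list lay at 6.83 to 7.18 in MHCII+ arrays and 6.69 to 6.80 in MHCII- arrays, also below the filter and without overlap; 0 of its 4 tested members passed, and Foxp3, the defining transcription factor, overlapped (7.12, 6.98, 7.64 and 7.07 in MHCII+ arrays, against 7.00, 7.29 and 7.05 in MHCII- arrays). The part of other cells in the higher genes was not tested. Without MHCII+ replicate 3, 74 genes passed, all among the 98.

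**Figure D4:**
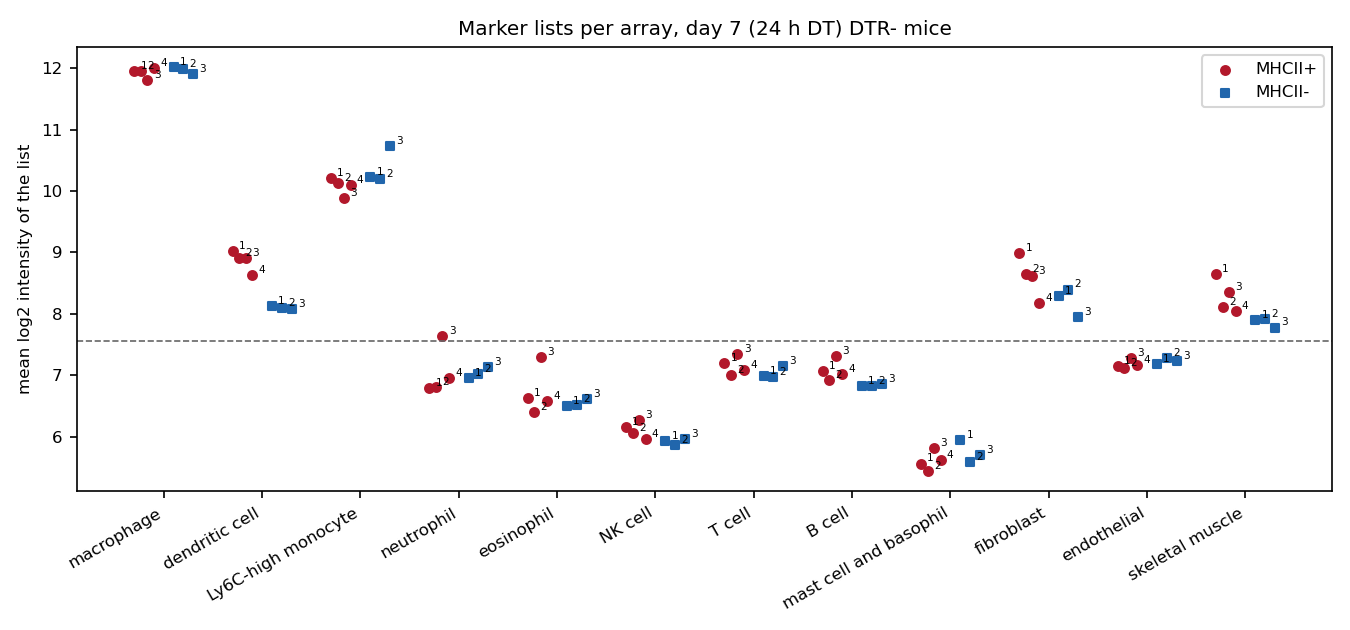
Mean log2 intensity (y axis) of 12 marker lists (x axis) in each MHCII+ (red circles) and MHCII- array (blue squares), numbered by replicate; the dashed line is the intensity filter at log2 7.57. Of the lists drawn, those of dendritic cells, B cells and skeletal muscle do not overlap between the groups, and MHCII+ replicate 3 is highest for neutrophil and eosinophil markers.

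The same split was then set beside DTR+ mice of the 24 h day 7 set, in which DT removes regulatory T cells. There 57 genes passed (0.515% of those tested), 50 higher (0.452%) and 7 lower (0.0632%). Of the 98 genes, 97 had the same sign in DTR+ mice, the exception being Snora62, and 45 passed there too (45.9% of the 98 and 78.9% of the 57). For this set and those below, the share of all tested genes with the same sign was not counted. The median ratio of the DTR+ to the DTR- difference was 0.88. Klrb1b differed by 3.96 ± 0.22 in DTR- mice, beside 4.04 in DTR+ mice, and Vsig4 by -2.97 ± 0.33, beside -3.09. Ccl17 differed by 1.90 ± 0.29 in DTR- mice, beside 3.65 in DTR+ mice. No gene passed the test of the difference of the subset effect, DTR- minus DTR+ (limma; 0 of 11074, 347 at an unadjusted p under 0.05), and 5 passed when weights were estimated per array.

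In the 8 h day 7 set of DTR- mice 231 genes passed (2.09%), 150 higher (1.35%) and 81 lower (0.731%). All 98 genes had the same sign there and 78 passed (79.6% of the 98 and 33.8% of the 231), with a median ratio of 0.80. Cd209a differed by 2.66 ± 0.34 at 24 h and by 1.29 at 8 h, H2-Eb1 by 2.50 ± 0.22 and 2.94, and Mmp9 by -2.04 ± 0.38 and -1.41. The difference of the effects, 24 h minus 8 h, passed for 0 genes (limma; 169 at an unadjusted p under 0.05). The sets differ also in age and in the SiglecF step of the gate, and their part cannot be told apart.

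The split was wider in uninjured muscle. Counts at 1 threshold also follow the spread, and the median residual SD was 0.12 in the day 0 set, against 0.20 in the 24 h day 7 set. At day 0, 2721 genes passed (24.6%; 10.4% higher and 14.2% lower), 97 of the 98 had the same sign (the exception was F630111L10Rik) and 92 passed (93.9% of the 98 and 3.38% of the 2721), at a median ratio of 1.65, visible in the plot of the 98 genes across sets. The difference of the effects, 24 h day 7 minus day 0, passed for 520 genes (4.70%), 152 with a positive (1.37%) and 368 with a negative difference (3.32%). Of the 98 genes, 45 were among them. For 40 of the 69 higher genes the subset difference was smaller at 24 h day 7 than at day 0, and for 2 it was larger, Snora62 and F630111L10Rik. Of the 29 lower genes, Colec12 and Cpne8 had smaller decreases at 24 h and Mmp9 a larger one. With 1 array left out, the call of the difference was lost in 7 of 11 fits for Mmp9 (adjusted p up to 0.142), in 3 for Colec12 (up to 0.162) and in 1 for Cpne8 (0.0759). These exceptions are named after their values were seen. The sets differ in injury, in age and in the DT hours of the titles, and the part of each cannot be told apart.

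**Figure D5:**
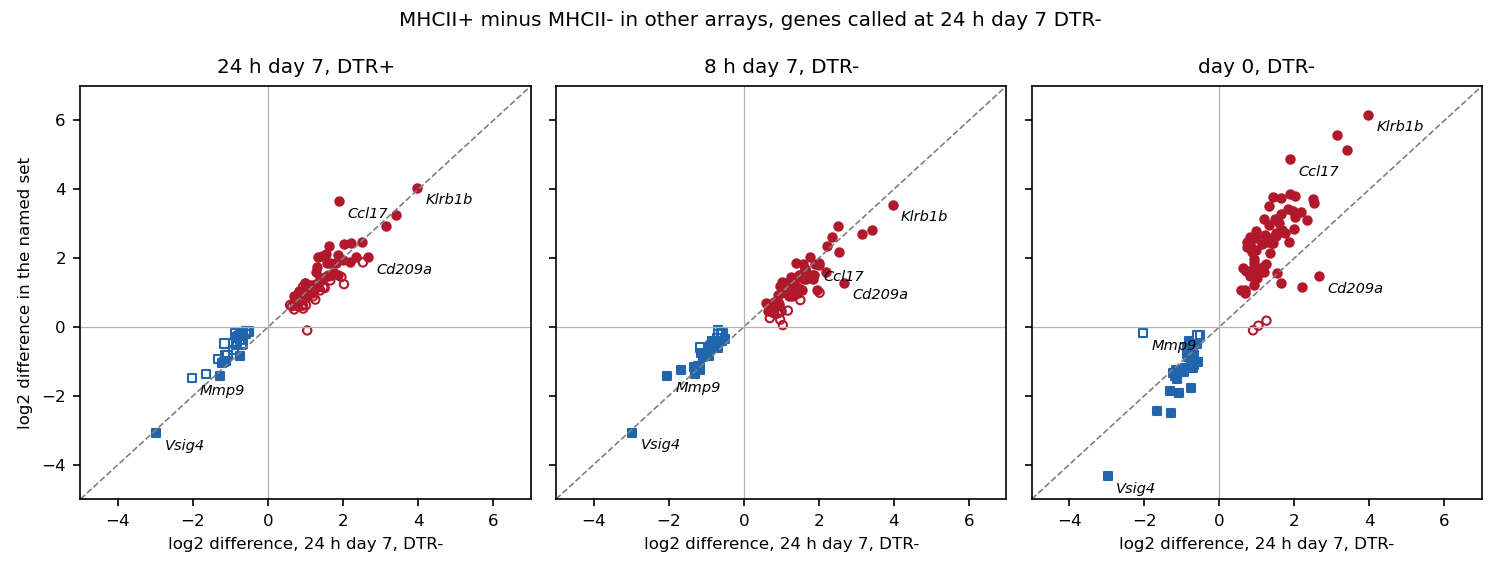
Difference in log2 intensity, MHCII+ minus MHCII-, of the 98 genes at 24 h day 7 in DTR- mice (x axes) and in 24 h DTR+, 8 h DTR- and day 0 DTR- arrays (y axes). Filled symbols passed in the named set, red circles are higher and blue squares lower genes, and the dashed line marks equality; most points of day 0 lie beyond it (median ratio 1.65).

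Levels show on which side the day 0 split was wider. Ccl17 lay at 9.20 to 9.55 in MHCII+ arrays, against 7.08 to 8.01 in MHCII- arrays at 24 h day 7; at day 0 it lay at 11.85 and 11.96 in MHCII+ and at 6.95 and 7.10 in MHCII- arrays (difference of effects -2.98, adjusted p = 1.26e-05). The larger part of the gap was thus a higher level in uninjured MHCII+ cells. Klri1 followed the same order, with 8.35 to 9.46 in MHCII+ arrays at 24 h and 10.84 and 11.11 at day 0 (difference of effects -2.44). Itgax differed on the other side: MHCII+ arrays lay at 11.58 to 12.09 at 24 h day 7 and at 11.08 and 11.20 at day 0, while MHCII- arrays lay at 11.25 to 11.58 at 24 h day 7 and at 8.08 and 8.22 at day 0 (difference of effects -2.58, adjusted p = 1.43e-08). Gprc5a (-2.47) and Akr1c18 (-3.28), an enzyme of steroid metabolism, completed the 5 largest negative differences.

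Cell cycle genes differed between these sets. At day 0, 10 of 33 tested members were higher in MHCII+ cells and 0 lower (median 0.54), beside a median of -0.41 and 0 passed at 24 h day 7. Over all tested genes 10.4% were higher and 14.2% lower at day 0. Of all tested genes, 3.32% passed with a negative difference of effects. In the list it was negative and passed for 9 of 33, among them Kif20a, a mitotic kinesin gene (-1.75, adjusted p = 0.011), Plk1 (-1.67, adjusted p = 0.0428) and Mki67 (-1.67, adjusted p = 0.0392). This count ran from 1 to 12 when 1 array was left out; it was 1 without MHCII+ replicate 2 or MHCII- replicate 2 of day 0, and 2 or 3 without any 1 of the MHCII- arrays of 24 h day 7. Plk1 and Mki67 lost their calls in most of these 11 fits, and Kif20a in the 2 without replicate 2 of a day 0 group.

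The 5 largest positive differences from day 0 were neutrophil genes. Ngp, S100a8, Lcn2, S100a9 and Retnlg had differences of effects of 5.71, 3.99, 3.78, 3.26 and 2.28. They rest on the day 0 MHCII- arrays, in which Ngp lay at 11.23 and 8.24, against 5.04 and 5.22 in the day 0 MHCII+ arrays, and S100a8 at 11.54 and 7.17, against 5.93 and 5.99. Replicate 1 of the day 0 MHCII- arrays thus held far more of these transcripts. Without it, the differences were 4.21 for Ngp (adjusted p = 0.0049), 1.81 for S100a8 (adjusted p = 0.0484), 2.05 for Lcn2 (adjusted p = 0.0848), 1.01 for S100a9 (adjusted p = 0.268) and 0.86 for Retnlg (adjusted p = 0.0852). Without MHCII+ replicate 3 of 24 h day 7, Ngp stood at 4.68 and S100a9 at 2.76 (adjusted p = 0.0749).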

How the data were processed

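The deposited table held linear intensity values, 1 per probe set and array; per the labels they were summarized with Affymetrix Power Tools and RMA, with versions not stated there. They were converted to log2, and probe sets with 1 gene symbol in the platform annotation were kept (21425 of 24922; 1399 had several and 2098 none). The probe set with the highest mean stood for a gene (19752 genes; 1673 probe sets left out). Testing was limited to the 11074 genes with a group mean, in any of 18 groups, at or above the median of all values (log2 7.57). Symbols, not coordinates, identified genes.

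Differences were fitted in limma 3.58.1 (R 4.3.3) on all 45 arrays, a mean for each group (27 residual degrees of freedom), weights per set, since the 24 h day 7 set had the widest median residual SD (0.20, against 0.07 to 0.16 in the other sets), an intensity trend, and Benjamini-Hochberg adjustment over all tested genes; adjusted p-values in the text are limma's, and under 0.05 passed. The fit was tested on simulated data. The comparison, its members and the 40 gene lists (544 of 586 genes measured) were chosen with earlier results of these data known. Named genes were up to 15 per direction with the largest differences among those past the threshold without overlap (predicted, small RNA and antigen receptor genes left out), up to 4 per direction of each list, a fixed set, and up to 5 per direction for a difference of effects. The labels do not say whether replicate numbers pair the arrays, so the main fit has no pairing. Same-numbered MHCII+ and MHCII- arrays had deviation correlations of 0.36, 0.15 and -0.02, too few to settle it. For arrays, their number limits the precision. Alternatives were filters, weights, the arrays fitted, the trend, probe set choice, quantile normalization, a replicate block and each array left out. Figures used matplotlib 3.10.9.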

Additional observations from a re-analysis of the deposited data

Results flagged for a closer look

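In 5 of 96 tested groups of 4 MHCII+ values (56 genes and 40 list levels), 1 array lay apart from the other 3 by a gap whose share of the whole range was above Dixon's critical value; chance flags about 1 in 20 such groups. For Cd226 (0.924), Klrb1a (0.880) and Ccl17 (0.837) this was MHCII+ replicate 4, at 8.36, 6.55 and 9.20, and for Gja1 (0.838) it was replicate 1, at 7.27. The mean level of the CXC chemokine list (0.855) was highest in replicate 4, at 9.88.

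The MHCII+ minus MHCII- difference at 24 h day 7 in DTR- mice differed from that at day 0, by limma's test of the difference itself, for 10 genes that are the largest 5 on each side. The neutrophil genes were Ngp (5.71), S100a8 (3.99), Lcn2 (3.78), S100a9 (3.26) and Retnlg (2.28). The differences of effects on the other side were those of Akr1c18 (-3.28), Ccl17 (-2.98), Itgax (-2.58), Gprc5a (-2.47) and Klri1 (-2.44). Leaving out any 1 array of the 4 groups kept the calls of Ngp and S100a8 and of the 5 negative differences, but not those of Lcn2, S100a9 and Retnlg.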

How the results depend on the processing

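The 98 genes kept their direction under every alternative that tested them. For genes whose groups did not overlap, other weights, filters or arrays left out could not have changed it. The number of genes that passed followed the spread assumed. It was 579 with equal weights (226 higher, 353 lower, against 69 and 29), 782 with weights by array (256 and 526), 149 with only the 24 h day 7 arrays (85 and 64), 222 with only the compared arrays (111 and 111), and 54 to 170 with 1 array left out. With the replicate block it was 148 (87 and 61), of which 92 were among the 98. Quantile normalization gave 137, with the median of all genes at -0.01, and for the day 0 difference 242 positive and 345 negative, against 152 and 368. A filter on the mean of the 7 arrays left 23 of the 98 genes untested and 71 called; then 2 NK-complex receptors passed, against 6. The 24 h DTR+ count of 57 was 152 with equal weights, 563 with weights by array (295 and 268, against 50 and 7), 16 with only the compared arrays and 16 to 92 with 1 array left out. The 8 h count of 231 was 1140 with weights by array (520 and 620, against 150 and 81) and 110 to 210 with 1 array left out; the day 0 count of 2721 was 1657 with only the compared arrays and 1346 to 3084 with 1 left out. The count of differences from DTR+ was 5 with weights by array and 0 with any 1 array left out. That from 8 h was 0 in both settings. The count of differences from day 0 (520) was 1200 with weights by array (524 and 676) and 228 to 982 with 1 array left out. It was 305 without MHCII+ replicate 4 and MHCII- replicate 3 together, a setting chosen after seeing the data. Zbtb46, near 0 (-0.03), changed sign with the replicate block (0.0292) and without the 2 arrays together (0.1115), and ran from -0.1423 to 0.0529 with 1 array left out, above 0 without MHCII+ replicate 2 (0.0242) or 4 (0.0292) or MHCII- replicate 3 (0.0529). The cause of these shifts was not tested.

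Calls of genes named in the text that were lost under a setting other than leaving out 1 array were those of B3gnt3 and Mertk (fits on the 24 h day 7 or compared arrays), Ccl5 (replicate block) and, without the 2 arrays together, Gja1, Adgrl2, Tnfsf9 and Ccl5. Of 57 uncalled genes followed, 34 passed with equal weights, 38 with weights by array, 22 with only the compared arrays, 16 with only the 24 h day 7 arrays, 7 after quantile normalization, 5 with the replicate block and 0 to 9 with 1 array left out; Cxcl9, Lyve1, Timd4, Retnla, Chil3, Kif20a and Plk1 passed in each of the first 4. With the filter on the 7 arrays, 2 dendritic cell genes passed, against 5. For 37 of the 69 higher genes the MHCII- arrays lay below the filter, and 4 and 3 arrays limit the precision.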
